A study of Mus musculus with 6 samples.

Results

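The genes described here are 10 regulators and effectors of the ATF4 and CHOP stress pathway, *Atf4*, *Atf5*, *Ddit3*, *Atf3*, *Trib3*, *Ppp1r15a*, *Sesn2*, *Ddit4*, *Chac1* and *Asns*, measured in mouse liver after an acetaminophen overdose. They were taken by gene name from a table of 55401 entries, in which the 10 names had 11 entries because *Ddit3*, the gene of CHOP, was listed under 2 identifiers. One entry of each gene, 10 in all, had a mean of at least 1 FPKM (fragments counted per kilobase of transcript and adjusted for library depth) over all libraries and was tested. The other *Ddit3* entry (ENSMUSG00000116429) held 1 count in every library and was not tested. Poly(A) RNA of C57BL/6 livers was sequenced in 6 libraries, 2 from each of 3 groups. Mice of the COS+APAP group received 20 mg/kg costunolide (COS, a sesquiterpene lactone of plants) 12 h and again 40 min before 400 mg/kg acetaminophen (APAP, paracetamol). Mice of the APAP group received the same APAP dose by intraperitoneal injection and no costunolide. In both of these groups the time given after APAP is 6 h. The control group is labelled only as control and normal, with no hour of collection and no mention of a vehicle. Sex and age are not stated, and the labels do not state whether both libraries of a group are separate animals, so p-values reflect no more than the spread between libraries.

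ATF4 is a bZIP transcription factor whose messenger RNA is translated more efficiently when kinases phosphorylate the translation factor eIF2alpha, as happens under amino acid shortage, endoplasmic reticulum stress, haem deficiency or viral infection. ATF4 and its partners then switch on genes of amino acid supply and other transcription factors, among them CHOP, which is associated with cell death when the stress persists. In liver, acetaminophen is converted to a reactive metabolite that consumes glutathione and binds mitochondrial proteins, and activation of this pathway and of CHOP has been described in that injury.

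The group of each library was taken from its title, source name and treatment label. The protocol text, however, assigns costunolide to samples 5 and 6, which by order of deposition are the libraries labelled APAP. Were that text correct, the COS+APAP and APAP labels would be swapped and the differences given here between these groups would run the other way. COS+APAP titles begin their numbering with 2 and all other titles with 1, so any batch tied to this numbering cannot be told apart from costunolide. Libraries held 71115112 to 76669799 estimated counts, and mitochondrially encoded transcripts made up 11.8% and 10.83% of these in COS+APAP, 8.284% and 7.373% in APAP, and 12.78% and 16.09% in control. The extraction text speaks of an adipose type although the tissue is labelled liver. The 7 hepatocyte markers were detected in every library and summed to 44400 to 59040 FPKM, while *Ly6g* of neutrophils and 4 of 6 markers of neighbouring tissue (*Cpa1*, *Pnliprp1*, *Ins2* and *Myh4*) were at 0 throughout. Of the remaining 2, the pancreatic elastase gene *Cela1* was at 1.9 to 4.2 FPKM over all libraries. *Fabp4*, a gene of adipocytes and of endothelial cells and macrophages, was at 5.49 and 4.83 FPKM in COS+APAP, 6.27 and 4.95 FPKM in APAP, and 1.67 and 2.32 FPKM in control, and it rose in both treated groups against control (adjusted p = 0.0108 in COS+APAP and 0.00375 in APAP). The part of such tissue in the results was not tested. The COS+APAP libraries stood apart from each other in 3 of the 10 genes, *Ddit3*, *Atf3* and *Chac1*, and their results are given with and without each of these libraries.

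ATF4 binds DNA as a dimer with C/EBP-type partners at the C/EBP-ATF response element, whose core reads TGATGNAA. Both strands of the RefSeq promoter windows of the 10 genes (GRCm38.p6, 250 bases before to 50 after the annotated start, 11 windows because a gene can have several starts) were searched for that core. It was found in 4 windows, those of *Atf3*, *Chac1*, *Asns* and *Trib3*, and in 3.97% of all 32851 windows. In *Trib3* it lies after the RefSeq start, at positions 15 to 22, but outside the gene as the deposited table bounds it. In *Asns* it lies before the RefSeq start but inside the gene as bounded there, in a transcribed part of the GENCODE annotation. In *Atf3* the core and the whole printed stretch lie before the RefSeq start but also inside the gene as bounded there, outside the GENCODE untranslated regions. These sequences are shown because they carry the element through which ATF4 is known to act, with the core in capitals (read on the opposite strand in *Atf3*, *Chac1* and *Trib3*) and each sequence 5′ to 3′ on the strand of its gene.
Atf3, chr1:191183341-191183583, minus strand: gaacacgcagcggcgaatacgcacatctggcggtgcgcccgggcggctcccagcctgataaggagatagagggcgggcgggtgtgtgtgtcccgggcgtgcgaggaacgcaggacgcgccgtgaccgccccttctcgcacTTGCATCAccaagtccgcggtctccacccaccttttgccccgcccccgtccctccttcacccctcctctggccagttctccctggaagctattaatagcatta
Chac1, chr2:119350992-119351228, plus strand: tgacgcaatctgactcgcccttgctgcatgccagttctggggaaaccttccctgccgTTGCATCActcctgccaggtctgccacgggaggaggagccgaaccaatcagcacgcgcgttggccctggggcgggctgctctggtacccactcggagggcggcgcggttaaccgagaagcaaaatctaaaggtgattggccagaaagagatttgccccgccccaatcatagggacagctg
Asns, chr6:7693215-7693242, minus strand: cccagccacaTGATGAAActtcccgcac
Trib3, chr2:152344029-152344056, minus strand: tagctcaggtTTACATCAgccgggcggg

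The other motifs searched on both strands were the CRE (TGACGTCA), the ATF6-type element TGACGTGG, the AP-1 element (TGANTCA) and the end of the endoplasmic reticulum stress element (CCACG), which a full TGACGTGG contains in its reverse complement. The CRE, a site of ATF and CREB proteins, was present in the *Ppp1r15a* window, 12 to 5 bases before the start, and in 1.79% of all windows. The AP-1 element, the site of Jun and Fos dimers, was present in the *Ddit3* window, 242 to 236 bases before the start, and in 7.81% of all windows. CCACG occurred in 7 windows, those of *Chac1*, *Sesn2*, *Asns*, *Atf5*, *Ppp1r15a*, *Ddit4* and *Atf4*, against 32.8% of all windows, and TGACGTGG in none of the 11, against 0.676%. A match describes the letters of the window and is no evidence that a factor was bound there. The windows with the CRE and the AP-1 element are printed up to the annotated transcript start, with the motif in capitals.
Ppp1r15a, chr7:45526269-45526518, minus strand: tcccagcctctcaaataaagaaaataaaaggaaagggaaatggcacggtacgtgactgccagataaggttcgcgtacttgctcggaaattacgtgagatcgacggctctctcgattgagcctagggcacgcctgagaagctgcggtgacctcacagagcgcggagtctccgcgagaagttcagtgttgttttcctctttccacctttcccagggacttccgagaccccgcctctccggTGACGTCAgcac
Ddit3, chr10:127290543-127290773, plus strand: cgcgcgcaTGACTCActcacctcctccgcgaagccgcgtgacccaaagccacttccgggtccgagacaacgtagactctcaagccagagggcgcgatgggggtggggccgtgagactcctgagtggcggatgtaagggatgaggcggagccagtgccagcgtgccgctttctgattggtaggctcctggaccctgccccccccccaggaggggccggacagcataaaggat

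*Atf4* (ENSMUSG00000042406, chr15:80255184-80257541) encodes the central factor of the pathway, and its messenger was abundant in every group. It was at 51.70 and 59.08 FPKM in COS+APAP replicates 2 and 3, at 128.14 and 82.83 FPKM in APAP replicates 1 and 3, and at 55.81 and 61.29 FPKM in control replicates 1 and 3. Both APAP libraries lay above the other 4, and the COS+APAP and control libraries overlapped. Its protein is controlled mainly through translation, which poly(A) RNA does not measure. *Atf5* (ENSMUSG00000038539, chr7:44812256-44816658), a related bZIP factor that is abundant in liver and is likewise translated when eIF2alpha is phosphorylated, was at 203.42 and 190.62 FPKM in COS+APAP, 333.43 and 315.82 FPKM in APAP, and 167.84 and 161.05 FPKM in control. It had the highest level of the 10 genes in all 6 libraries on this length-scaled measure, and its groups did not overlap. The annotated *Atf5* gene shares 272 bases with *Il4i1* and 571 with *Nup62* on the other strand, and since the sources used here do not say whether counting used the strand, reads of these genes cannot be told apart there.

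*Ddit3* (ENSMUSG00000025408, chr10:127290774-127296288) encodes CHOP, a C/EBP-family factor that ATF4 induces. It was at 8.20 and 59.48 FPKM in COS+APAP, at 132.70 and 145.63 FPKM in APAP, and at 4.93 and 6.13 FPKM in control. On a log scale COS+APAP replicate 2 lay close to the control libraries and replicate 3 closer to the APAP libraries, although the ranges of the groups did not overlap. *Atf3* (ENSMUSG00000026628, chr1:191170296-191218039), an early stress-induced bZIP factor downstream of ATF4, was at 11.05 and 99.57 FPKM in COS+APAP, 245.67 and 213.00 FPKM in APAP, and 0.88 and 1.04 FPKM in control. It showed the same split between the COS+APAP libraries, with both above control and below APAP. *Ddit3* shares 68 bases with *Mars1* on the other strand and 2925 with its second entry, and *Atf3* shares 108 bases with *Gm24748*.

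Among the effectors that restrain the response, *Trib3* (ENSMUSG00000032715, chr2:152337422-152344032), a pseudokinase induced by CHOP that inhibits ATF4, was at 5.03 and 6.82 FPKM in COS+APAP, 8.34 and 11.60 FPKM in APAP, and 1.66 and 1.18 FPKM in control. *Ppp1r15a* (ENSMUSG00000040435, chr7:45522916-45526268), which encodes GADD34, the inducible subunit that directs a phosphatase to eIF2alpha, was at 7.60 and 11.57 FPKM in COS+APAP, 28.19 and 26.86 FPKM in APAP, and 5.34 and 4.12 FPKM in control. The groups of both genes followed the order APAP, COS+APAP, control with no overlap. In FPKM, *Ppp1r15a* lay nearer to control than to APAP in both COS+APAP libraries. On the log2 scale, a fit without COS+APAP replicate 2 put it 1.45 above control and 1.22 below APAP. Replicate 3 was thus slightly nearer to APAP on that scale. *Ppp1r15a* shares 717 bases with *Tulp2* on the other strand.

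The pair of genes that lead from the pathway to lower mTORC1 activity took different patterns. *Sesn2* (ENSMUSG00000028893, chr4:132492032-132510501), a leucine-binding inhibitor of mTORC1 signalling, was at 6.35 and 8.86 FPKM in COS+APAP, 12.61 and 11.81 FPKM in APAP, and 1.71 and 1.20 FPKM in control. *Ddit4* (ENSMUSG00000020108, chr10:59949669-59951834), which encodes REDD1 and is also induced by hypoxia and glucocorticoids, was at 29.76 and 25.73 FPKM in COS+APAP, 6.47 and 11.59 FPKM in APAP, and 3.11 and 1.81 FPKM in control. *Sesn2* was highest in APAP, whereas *Ddit4* was highest in COS+APAP, and neither gene had overlapping groups. *Sesn2* shares 6089 bases with *Gm12981* on the same strand, and its reads may be split between them.

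The last genes act on metabolites. *Chac1* (ENSMUSG00000027313, chr2:119351229-119354381), a gamma-glutamyl cyclotransferase that degrades glutathione, was at 2.14 and 10.90 FPKM in COS+APAP, 10.29 and 11.02 FPKM in APAP, and 0.45 and 0.35 FPKM in control. COS+APAP replicate 3 lay within the APAP range and replicate 2 lay between the groups. *Asns* (ENSMUSG00000029752, chr6:7675169-7693254), asparagine synthetase and a classical ATF4 target, was at 5.33 and 4.59 FPKM in COS+APAP, 4.42 and 4.30 FPKM in APAP, and 0.94 and 0.41 FPKM in control. The treated groups lay close together, and all 4 treated libraries lay above both controls.

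**Figure D1:**
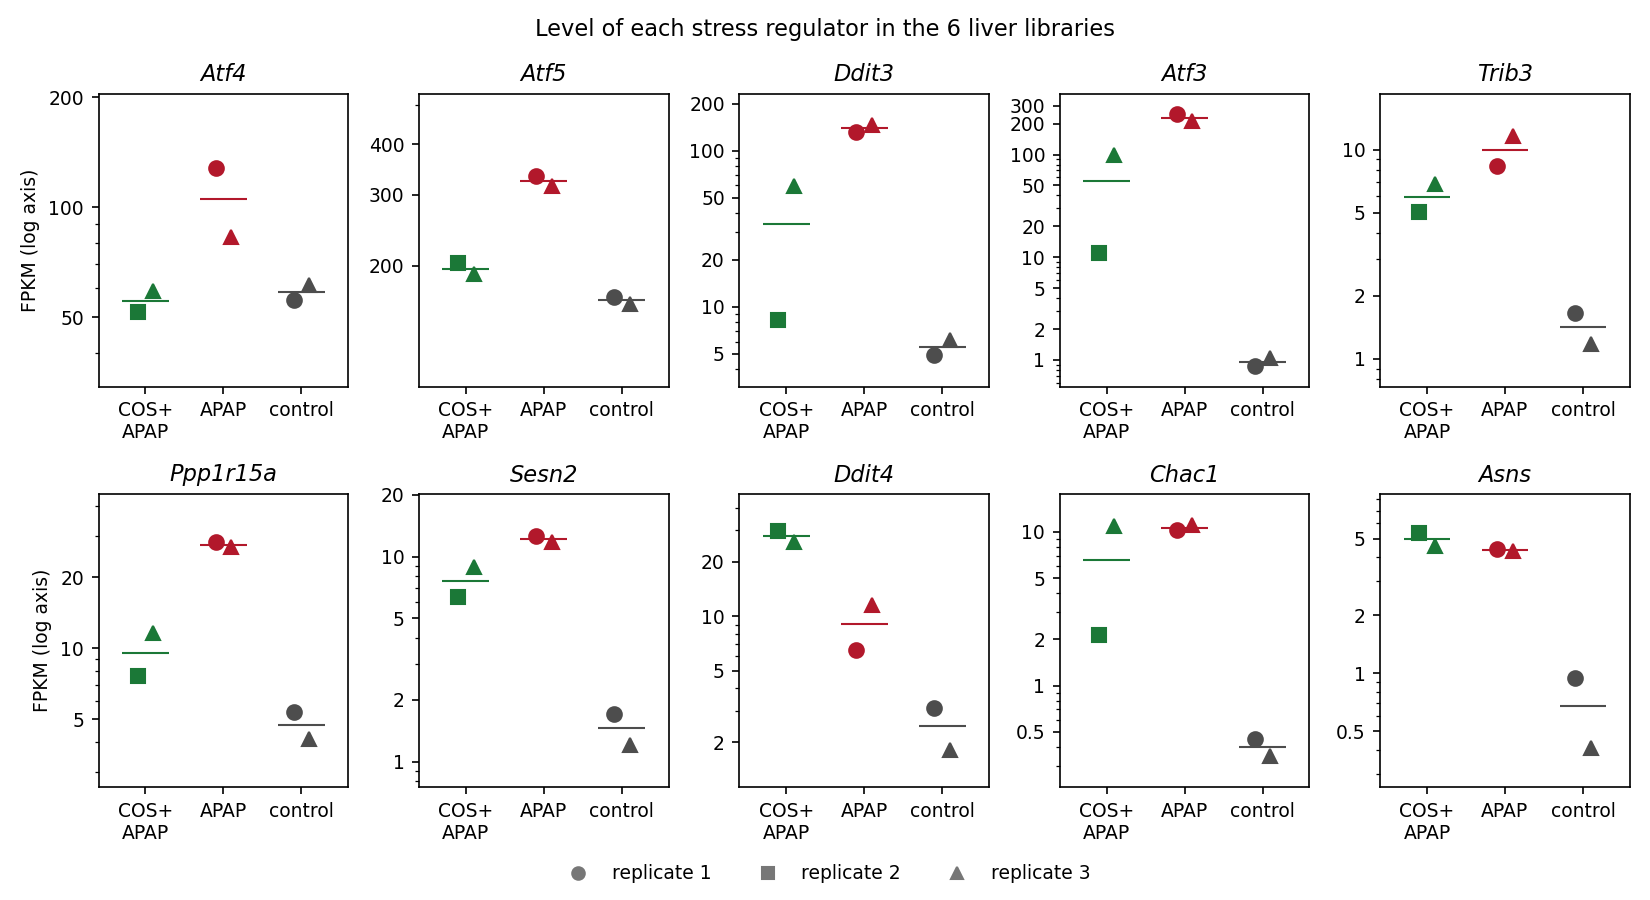
FPKM on a log axis of each of the 10 genes in every library, grouped as COS+APAP, APAP and control, with 1 point per library and a line at the group mean. The COS+APAP points lie far apart for *Ddit3* (8.20 and 59.48 FPKM), *Atf3* (11.05 and 99.57 FPKM) and *Chac1* (2.14 and 10.90 FPKM), and *Ddit4* is the gene whose COS+APAP points lie well above its APAP points.

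The first comparison asks what acetaminophen alone did, APAP against control. All 10 genes rose, against a background of 23.3% of the 10051 tested genes that rose and 22.1% that fell at an adjusted p below 0.05 in the quasi-likelihood test of edgeR, with Benjamini-Hochberg adjustment over all tested genes. The largest rise was that of *Atf3*, with a log2 fold change of 8.04 ± 1.22 (standard error, 2 libraries a group as in all comparisons; adjusted p = 0.00511), a 263-fold difference. The median log2 fold change over the 10 genes was 2.88, that over all tested genes -0.00238. In each of the 10 genes both APAP libraries lay above both controls, which held for 32.1% of all tested genes.

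The rises ranged widely, also among genes of like role. The smallest were those of the related factors *Atf4* and *Atf5*, *Atf4* by a log2 fold change of 0.99 ± 0.237 (adjusted p = 0.0205) and *Atf5* by 1.12 ± 0.112 (adjusted p = 0.00193). *Ddit3* rose by 4.79 ± 0.951 (adjusted p = 0.0114). The feedback genes rose by 2.94 ± 0.292 for *Trib3* (adjusted p = 0.00189) and 2.68 ± 0.26 for *Ppp1r15a* (adjusted p = 0.0018). *Sesn2* rose by 3.20 ± 0.266 (adjusted p = 0.00147) and *Ddit4* by 2.00 ± 0.368 (adjusted p = 0.00905). Of the metabolic genes, *Chac1* rose by 4.85 ± 0.831 (adjusted p = 0.00734) and *Asns* by 2.81 ± 0.402 (adjusted p = 0.00443). The calls of *Atf4* and *Ddit3* had the highest adjusted p-values of the 10. Without APAP replicate 1 the log2 fold change of *Atf4* was 0.61 (adjusted p = 0.0452). Without control replicate 1 the adjusted p was 0.0867 for *Atf4* and 0.0636 for *Ddit3*, and without control replicate 3 it was 0.0722 and 0.062, so that 8 of the 10 genes remained called in each case, where 19.1% of all tested genes rose without control replicate 1 and 16% without control replicate 3.

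The next comparison, COS+APAP against APAP, asks what the pretreatment changed. *Atf4*, *Atf5* and *Ppp1r15a* fell and *Ddit4* rose, so that 3 of the 10 genes were lower and 1 was higher, where 11.1% of all tested genes were lower and 11.2% higher. *Ppp1r15a* fell by 1.50 ± 0.249 on the log2 scale (adjusted p = 0.016), *Atf4* by 0.92 ± 0.237 (adjusted p = 0.0453) and *Atf5* by 0.70 ± 0.112 (adjusted p = 0.0147). *Ddit4* rose by 1.64 ± 0.36 (adjusted p = 0.0294). The median log2 fold change was -0.71 over the 10 genes and 0.00573 over all tested genes. COS+APAP libraries were both below APAP libraries in 7 genes and both above them in 2, *Ddit4* and *Asns*, against 35.3% and 33.3% of all tested genes.

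The other 6 genes did not pass the test. *Ddit3* had a log2 fold change of -2.01 ± 0.841 (adjusted p = 0.142) and *Atf3* one of -2.03 ± 0.921 (adjusted p = 0.169), both with a wide gap between their COS+APAP libraries. *Trib3* stood at -0.73 ± 0.271 (adjusted p = 0.111) and *Sesn2* at -0.66 ± 0.244 (adjusted p = 0.107), and DESeq2's Wald test put them at an adjusted p of 0.0462 and 0.0464. *Chac1* stood at -0.68 ± 0.694 (adjusted p = 0.51) and *Asns* at 0.20 ± 0.372 (adjusted p = 0.727).

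The calls against APAP rested on few libraries. Without COS+APAP replicate 2, *Atf4* (adjusted p = 0.179), *Atf5* (0.0627), *Ppp1r15a* (0.0531) and *Ddit4* (0.108) lost their calls. Without COS+APAP replicate 3, *Atf4* (0.116), *Atf5* (0.0678) and *Ddit4* (0.0846) lost theirs, and without APAP replicate 1 all 4 were lost, with adjusted p-values of 0.108 for *Atf4* (log2 fold change -0.54), 0.0671 for *Atf5*, 0.0705 for *Ppp1r15a* and 0.113 for *Ddit4*. *Atf4* also lost its call without control replicate 1 (0.074) or control replicate 3 (0.0736), which enter this test only through the shared estimate of the spread, with upper quartile scaling (0.0571), without a filter on low values (0.0687) and in a fit of the 4 libraries compared (0.0737). Over the whole table, too, fewer genes passed with a library less, 2.77% higher and 3.32% lower without COS+APAP replicate 2, 3.17% and 4.05% without replicate 3, and 3.02% and 3.38% without APAP replicate 1. None of the 4 genes changed its direction in these fits.

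In the comparison of COS+APAP with control, which shares its libraries with those above, 7 of the 10 genes rose and none fell, where 10.7% of all tested genes rose and 10.3% fell. The genes that rose were *Atf3*, *Chac1*, *Ddit4*, *Asns*, *Sesn2*, *Trib3* and *Ppp1r15a*. The log2 fold change was 6.01 ± 1.11 for *Atf3* (adjusted p = 0.02), 4.16 ± 0.809 for *Chac1* (adjusted p = 0.0227) and, for *Ddit4*, 3.65 ± 0.392 (adjusted p = 0.00569). *Asns* rose by 3.01 ± 0.405 (adjusted p = 0.00939), *Sesn2* by 2.54 ± 0.259 (adjusted p = 0.00501), *Trib3* by 2.21 ± 0.285 (adjusted p = 0.00867) and *Ppp1r15a* by 1.17 ± 0.248 (adjusted p = 0.0282). *Atf4*, *Atf5* and *Ddit3* did not pass, with 0.08 ± 0.235 for *Atf4* (adjusted p = 0.841), 0.42 ± 0.111 for *Atf5* (adjusted p = 0.0515) and 2.78 ± 0.87 for *Ddit3* (adjusted p = 0.0759). Both COS+APAP libraries lay above both controls in 9 of the 10 genes, all but *Atf4*, against 25% of all tested genes.

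*Sesn2*, *Trib3*, *Ddit4* and *Asns* kept their calls in COS+APAP against control with any 1 library left out. *Ppp1r15a* lost its call without COS+APAP replicate 3 (adjusted p = 0.0939), APAP replicate 1 (0.0525), APAP replicate 3 (0.0538), control replicate 1 (0.0549) or control replicate 3 (0.118), and in a fit of the 4 libraries compared (0.0519). *Atf3* lost it without control replicate 1 (0.09) or control replicate 3 (0.102), and *Chac1* likewise (0.0869 and 0.114). *Ddit3* gained a call without COS+APAP replicate 2, with a log2 fold change of 3.59 (adjusted p = 0.00731), and stood at 0.72 without COS+APAP replicate 3. Without that library *Atf3* stood at 3.67 (adjusted p = 0.0137) and *Chac1* at 2.54 (adjusted p = 0.0219), so that *Ddit4*, at 3.74, had the largest value and *Chac1* lay below *Asns*, at 3.11. Of all tested genes, 3.06% rose and 2.81% fell without COS+APAP replicate 3, 4.9% and 4.43% without COS+APAP replicate 2, 6.62% and 5.43% without control replicate 1, and 3.64% in each direction without control replicate 3. The sign of the small *Atf4* difference changed with the scaling, to -0.10 with library totals alone.

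**Figure D2:**
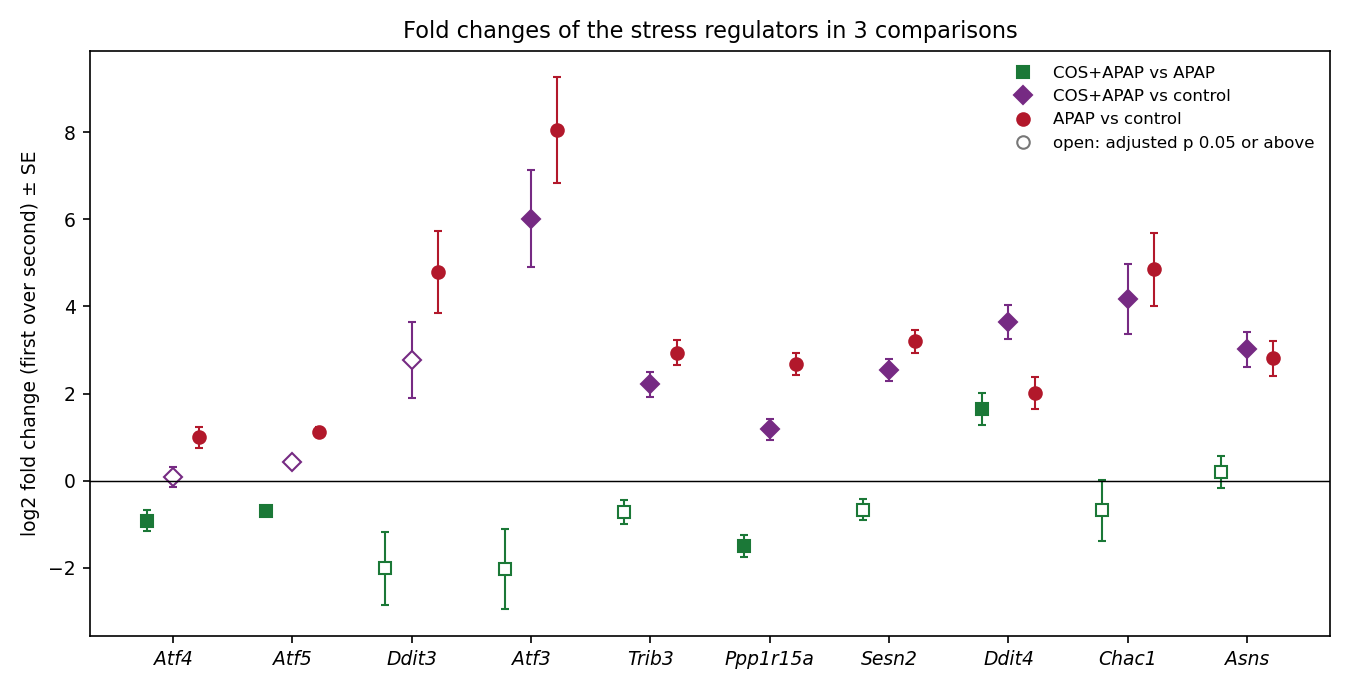
Log2 fold changes of the 10 genes with standard errors in each of the 3 comparisons, where filled points have an adjusted p below 0.05. All 10 genes are filled in APAP against control, and in COS+APAP against APAP *Ddit4* (1.64) is filled on the opposite side of 0 from *Atf4* (-0.92), *Atf5* (-0.70) and *Ppp1r15a* (-1.50).

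The split between the COS+APAP libraries was limited to 3 of the 10 genes. On counts scaled by TMM, replicate 3 exceeded replicate 2 by 3.19 on the log2 scale in *Atf3*, 2.87 in *Ddit3* and 2.36 in *Chac1*. Distances as large were rare among the 10051 tested genes, with 47 genes (0.468%) as far apart as *Atf3*, 68 (0.677%) as *Ddit3* and 106 (1.05%) as *Chac1*. The log2 ratios of the other 7 genes lay between -0.195 for *Asns* and 0.624 for *Ppp1r15a*. In all, 149 tested genes (1.48%) differed by at least 2 on the log2 scale between the COS+APAP libraries, 83 of them higher in replicate 3. The same distance was exceeded by 128 genes in APAP and 190 in control, none of them among the 10.

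Other known targets of ATF4 were not split. *Asns*, *Trib3* and *Sesn2* had similar levels in both COS+APAP libraries, and so had *Atf4* itself. None of the tested genes in the 8 pathway lists differed by 2 or more between these libraries, and the list medians of the log2 ratio of replicate 3 over replicate 2 lay between -0.0486 and 0.196. The pericentral hepatocyte markers, enzymes of the zone where acetaminophen is activated, summed to 2878 FPKM in replicate 3 and 3515 FPKM in replicate 2, the mitochondrial share was 10.83% and 11.8%, and neutrophil markers summed to 2.48 and 3.31 FPKM. The part of any of these in the split was not tested.

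Each COS+APAP library on its own gave a different comparison with APAP for the split genes. Without replicate 3, *Ddit3* had a log2 fold change of -4.07 (adjusted p = 0.0121), *Atf3* one of -4.37 (adjusted p = 0.0121) and *Chac1* one of -2.31 (adjusted p = 0.0288). Without replicate 2, *Ddit3* stood at -1.20 (adjusted p = 0.0412) and *Atf3* at -1.18 (adjusted p = 0.0444), while *Chac1* turned to 0.06 (adjusted p = 0.88). *Ddit3* and *Atf3* were thus lower than in APAP with either library alone, by amounts that differ by a log2 of more than 2, and the lone library was assumed to vary like the other groups.

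**Figure D3:**
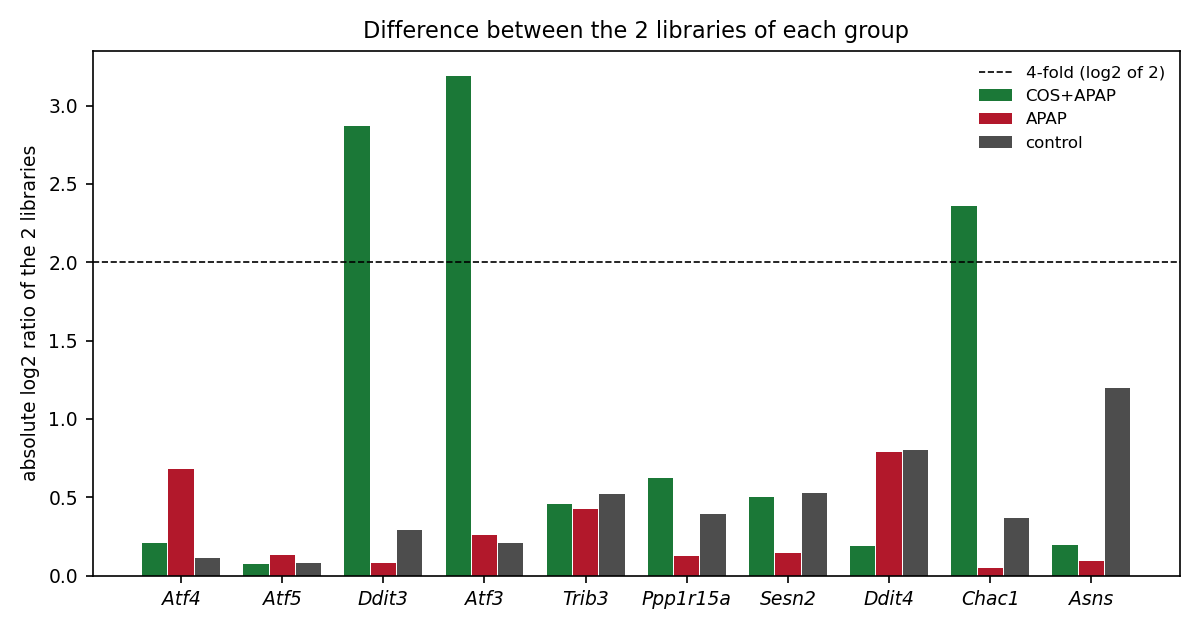
Bars give the absolute log2 ratio of TMM-scaled counts between the 2 libraries of COS+APAP, APAP and control for each of the 10 genes, and the dashed line marks a log2 ratio of 2. *Atf3* (3.19), *Ddit3* (2.87) and *Chac1* (2.36) lie beyond 2 in COS+APAP, and no gene of the 10 does so in APAP or control.

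The tested genes whose profile over the 6 libraries was most like that of *Atf4*, *Ddit3* and *Atf3* were found by the root mean square difference of centred log2(FPKM + 1) values. For *Atf4* they were *Fam43a* (difference 0.0874), *Tmem63a* (0.0884) and *Bcl10* (0.105), all at levels far below that of *Atf4*. *Fam43a* was at 0.41 and 0.68 FPKM in COS+APAP, 2.31 and 1.57 FPKM in APAP, and 0.68 and 0.69 FPKM in control. The added 1 shrinks ratios at such levels, so a small difference from *Atf4* is no sign of equal fold changes. For *Ddit3* the nearest was *Dnajb1*, an HSP40 co-chaperone, at a difference of 0.331, with 7.05 and 36.02 FPKM in COS+APAP, 111.40 and 136.12 FPKM in APAP, and 6.76 and 6.41 FPKM in control. Next came the heat shock gene *Hspa1a* (0.433), with 0.50 and 13.31 FPKM in COS+APAP, 14.43 and 23.18 FPKM in APAP, and 0.73 and 0.12 FPKM in control. *Ifrd1* (0.438) was the third, with 5.62 and 19.02 FPKM in COS+APAP, 68.25 and 46.90 FPKM in APAP, and 2.89 and 2.37 FPKM in control. Like *Ddit3*, these genes were much higher in COS+APAP replicate 3 than in replicate 2. *Hspa1a* has a near-identical neighbour, *Hspa1b*, and its value is uncertain to that extent.

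*Atf3* had no neighbour as close. The nearest were *Hmox1*, haem oxygenase (difference 0.658), *Cdkn1a*, the cell cycle inhibitor p21 (0.957), and *Sprr1a* (1.07). *Hmox1* was at 90.56 and 157.57 FPKM in COS+APAP, 771.52 and 689.08 FPKM in APAP, and 5.28 and 5.35 FPKM in control, so its COS+APAP libraries lay much closer together than those of *Atf3*. *Sprr1a* was at 2.39 and 32.92 FPKM in COS+APAP, 22.42 and 16.66 FPKM in APAP, and was listed at 0 in both controls.

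**Figure D4:**
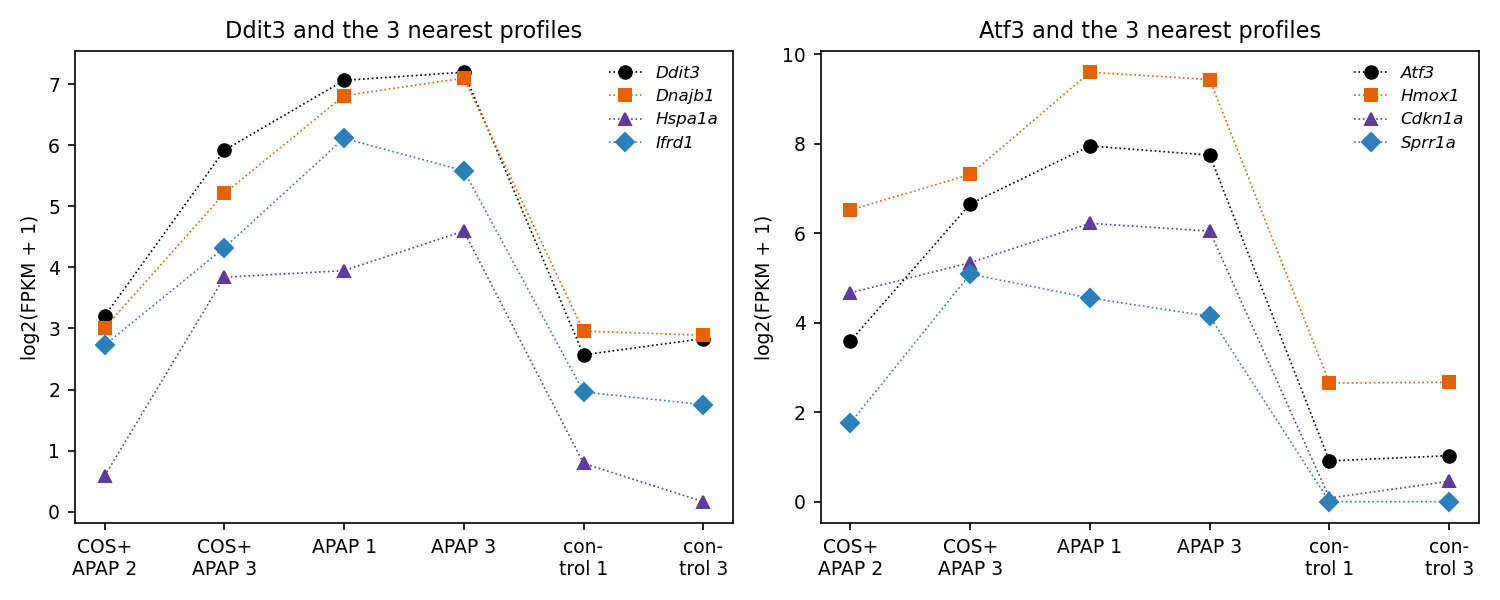
Log2(FPKM + 1) in the 6 libraries of *Ddit3* and *Atf3*, each with its 3 nearest tested genes, where the dotted lines only join the points of a gene. *Dnajb1* follows *Ddit3* with a root mean square difference of 0.331, and the genes nearest to *Atf3* are farther from it, at 0.658 or more.

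The rest of the pathway was described from 8 lists of genes, beginning with the kinases and phosphatase that set eIF2alpha phosphorylation. In APAP against control 2 of 11 tested genes rose and none fell, against the 23.3% of all tested genes that rose. Without control replicate 1, *Eif2ak2* (adjusted p = 0.0398) and *Dele1* (0.0496) also fell. *Eif2ak3*, the endoplasmic reticulum kinase PERK, was at 1.76 and 2.16 FPKM in COS+APAP, 4.15 and 3.66 FPKM in APAP, and 0.99 and 0.95 FPKM in control, a log2 fold change of 2.14 ± 0.175 in APAP against control (adjusted p = 0.00144). *Eif2ak4*, the amino acid sensor GCN2, was at 1.12 and 1.16 FPKM in COS+APAP, 2.48 and 2.63 FPKM in APAP, and 1.26 and 1.25 FPKM in control, with 1.16 ± 0.128 (adjusted p = 0.00234). These were also the 2 genes of the list that fell in COS+APAP against APAP, where 11.1% of all tested genes fell. The fall was 0.97 ± 0.169 for *Eif2ak3* (adjusted p = 0.0175) and 1.15 ± 0.128 for *Eif2ak4* (adjusted p = 0.00756). *Eif2ak3* lost that call without COS+APAP replicate 2 (0.0813) or APAP replicate 1 (0.0764). The haem-regulated kinase *Eif2ak1* (log2 fold change -0.12, adjusted p = 0.437), the RNA-activated *Eif2ak2* (-0.74, 0.0713), the mitochondrial relay genes *Oma1* (-0.26, 0.269) and *Dele1* (-0.46, 0.065), the constitutive phosphatase subunit *Ppp1r15b* (0.14, 0.41), and *Eif2s1* (0.21, 0.195), *Gcn1* (0.48, 0.0504), *Nck1* (0.88, 0.166) and *Dnajc3* (0.24, 0.255) did not pass in APAP against control.

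Genes of amino acid transport and synthesis known as ATF4 targets moved mostly upward with APAP. Of 12 tested among 21 listed, 8 rose and 1 fell in APAP against control, where 23.3% of all tested genes rose and 22.1% fell. The median log2 fold change was 0.886. The shares of all tested genes that rose and fell were 11.2% and 11.1% in COS+APAP against APAP, and 10.7% and 10.3% in COS+APAP against control. With any library left out these shares were lower. *Psat1* of serine synthesis was at 3.85 and 3.54 FPKM in COS+APAP, 12.38 and 9.06 FPKM in APAP, and 0.13 and 0.16 FPKM in control, a log2 fold change of 6.36 ± 0.262 in APAP against control (adjusted p = 0.000786). *Mthfd2*, a mitochondrial folate enzyme, rose by 3.90 ± 0.284 (adjusted p = 0.00123). *Psat1*, *Mthfd2*, *Slc7a5* and *Slc1a4* were below 1 FPKM in both controls and passed the filter on low values through treated libraries. For *Slc1a4* these were the COS+APAP libraries alone, at 2.66 and 4.22 FPKM. It was at 0.17 and 0.30 FPKM in APAP and 0.97 and 0.14 FPKM in control. *Slc1a4* was the 1 gene that rose in COS+APAP against APAP (log2 fold change 3.89, adjusted p = 0.0365). A gene that stayed so low in all groups was not tested, so the counts and median describe the tested genes only. *Shmt2*, the mitochondrial serine hydroxymethyltransferase, was the gene that fell, by 1.08 ± 0.0968 (adjusted p = 0.00162). In COS+APAP against control 7 rose and 1 fell, among them *Psat1* (4.84, adjusted p = 0.00207) and *Mthfd2* (3.55, adjusted p = 0.00336), with 4 to 6 that rose when 1 library was left out. Against APAP, 1 rose and 2 fell in COS+APAP, and none in either direction passed without COS+APAP replicate 2 or 3.

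Of 20 cytosolic aminoacyl-tRNA synthetases, which load tRNAs with amino acids, 9 rose and none fell in APAP against control. There 23.3% of all tested genes rose and 22.1% fell. The median log2 fold change of the synthetases was 0.444. Among all tested genes 11.1% fell in COS+APAP against APAP, and 10.7% rose in COS+APAP against control. Those shares of all tested genes, too, were lower with any library left out. *Tars*, the threonyl-tRNA synthetase, was at 6.86 and 8.36 FPKM in COS+APAP, 20.55 and 18.64 FPKM in APAP, and 5.58 and 4.93 FPKM in control. It rose by 2.04 ± 0.162 in APAP against control (adjusted p = 0.00138), and fell by 1.34 ± 0.158 in COS+APAP against APAP (adjusted p = 0.00799). In COS+APAP 3 synthetases fell against APAP, of which 1 was left without COS+APAP replicate 3, APAP replicate 1 or APAP replicate 3. Against control 7 rose in COS+APAP, a count that was 1 without COS+APAP replicate 3 or control replicate 3, 2 without control replicate 1 and 3 without COS+APAP replicate 2.

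Other genes known downstream of ATF4 or CHOP included secreted stress hormones. Their counts stand beside shares of all tested genes of 23.3% that rose and 22.1% that fell in APAP against control. In COS+APAP against APAP 11.1% of all tested genes fell. Each share was lower with any library left out. Of 14 tested among 19 listed, 10 rose and 1 fell in APAP against control, with 6 that rose without APAP replicate 1. *Fgf21* was at 7.66 and 8.34 FPKM in COS+APAP, 50.34 and 22.96 FPKM in APAP, and 0.65 and 0.93 FPKM in control, a log2 fold change of 5.68 ± 0.489 in APAP against control (adjusted p = 0.00152). *Gdf15* was at 4.80 and 4.51 FPKM in COS+APAP, 47.20 and 107.35 FPKM in APAP, and 2.61 and 3.14 FPKM in control, with 4.88 ± 0.421 (adjusted p = 0.00152). *Gdf15* fell by 4.02 ± 0.404 in COS+APAP against APAP (adjusted p = 0.00635), and both COS+APAP libraries lay near control. *Fgf21* fell by 2.18 ± 0.409 (adjusted p = 0.0209) and did not pass without COS+APAP replicate 2 (0.0993) or 3 (0.0855). It stayed 3.50 ± 0.449 above control (adjusted p = 0.00867). *Vegfa* was the gene that fell with APAP, by 0.95 (adjusted p = 0.0285), and it lost that call without APAP replicate 1 (0.129), APAP replicate 3 (0.0637) or control replicate 3 (0.116). In this list 3 genes fell in COS+APAP against APAP, 1 of them without COS+APAP replicate 3.

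The list of partners of ATF4, CHOP or ATF3 holds bZIP proteins and the coactivator *Crebbp*, which is no bZIP protein and did not pass in APAP against control (adjusted p = 0.0797). Of its 13 genes 12 were tested, 6 rose and 1 fell in APAP against control, and 5 fell in COS+APAP against APAP (3 without APAP replicate 1). Among all tested genes 23.3% rose and 22.1% fell in APAP against control, and 11.1% fell in COS+APAP against APAP. All of these shares were lower with any library left out. The AP-1 genes moved most in this list. *Jun* was at 5.45 and 15.16 FPKM in COS+APAP, 340.21 and 381.69 FPKM in APAP, and 14.67 and 9.36 FPKM in control, and *Fos* at 0.47 and 0.47 FPKM in COS+APAP, 58.71 and 73.83 FPKM in APAP, and 2.24 and 1.86 FPKM in control. *Jun* fell by 5.11 ± 0.583 in COS+APAP against APAP (adjusted p = 0.00783) and *Fos* by 7.10 ± 0.201 (adjusted p = 0.000889), and both COS+APAP libraries lay far below APAP. *Cebpe* fell by 2.48 ± 0.366 in APAP against control (adjusted p = 0.00479). Of the other ATF and CREB family members, 9 of 13 were tested, and 6 rose in APAP against control, against 23.3% of all tested genes. They included *Creb3l2* (2.57, adjusted p = 0.00193) and *Atf1* (1.67, adjusted p = 0.00185). The count of 6 was lower with any library left out. In COS+APAP against APAP 1 of the 9 rose and 2 fell, where 11.2% of all tested genes rose. *Atf1* fell by 1.44 (adjusted p = 0.00768) and *Creb3l2* by 0.99 (adjusted p = 0.0404), while *Atf6b* rose by 0.68 (adjusted p = 0.0264).

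The ATF6 and XBP1 arm, the branch of the unfolded protein response that raises chaperones and degradation factors of the endoplasmic reticulum, had another pattern. Of 22 genes, 6 rose and 11 fell in APAP against control, where 23.3% of all tested genes rose and 22.1% fell. The count that rose was thus near the share of all tested genes. The median log2 fold change was -0.728. The chaperone genes *Hspa5* (BiP, log2 fold change 2.19, adjusted p = 0.00829) and *Dnajb9* (2.82, adjusted p = 0.00309) rose, while *Sdf2l1* (-2.87, adjusted p = 0.00089) and *Derl3* (-4.89, adjusted p = 0.0062), genes of protein folding and degradation there, fell. In COS+APAP against APAP 11 of the 22 rose and 2 fell, where 11.2% of all tested genes rose and 11.1% fell. Both of these shares were lower with any library left out. *Sdf2l1* was among those that rose, at 37.77 and 41.70 FPKM in COS+APAP, 8.58 and 7.80 FPKM in APAP, and 70.53 and 61.12 FPKM in control (log2 fold change 2.29, adjusted p = 0.00341). The 2 that fell were *Ern1* (-1.527, adjusted p = 0.00555) and *Xbp1* (-1.511, adjusted p = 0.00635). Both had risen in APAP against control (1.255 and 1.743, adjusted p = 0.00196 and 0.00155). The count of 11 was 4 without COS+APAP replicate 2, APAP replicate 1 or APAP replicate 3, and 3 without COS+APAP replicate 3.

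Genes of the mTORC1 circuit that *Sesn2* and *Ddit4* feed into were called about as often as genes in general. Of 12 tested genes among 18 listed, 3 rose and 2 fell in APAP against control, where 23.3% of all tested genes rose and 22.1% fell, with a median log2 fold change of 0.222. The count that fell was 1 with any library left out. In COS+APAP against APAP 1 gene rose, and none did with any library left out. *Mtor* itself rose by 0.74 ± 0.121 in APAP against control (adjusted p = 0.00651) and *Sesn1*, the paralogue of *Sesn2*, by 0.86 ± 0.151 (adjusted p = 0.00782). *Nprl2*, a subunit of the complex that restrains mTORC1 under amino acid shortage, was at 3.93 and 4.14 FPKM in COS+APAP, 2.63 and 2.56 FPKM in APAP, and 7.43 and 6.61 FPKM in control, and fell in APAP against control (adjusted p = 0.00286).

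**Figure D5:**
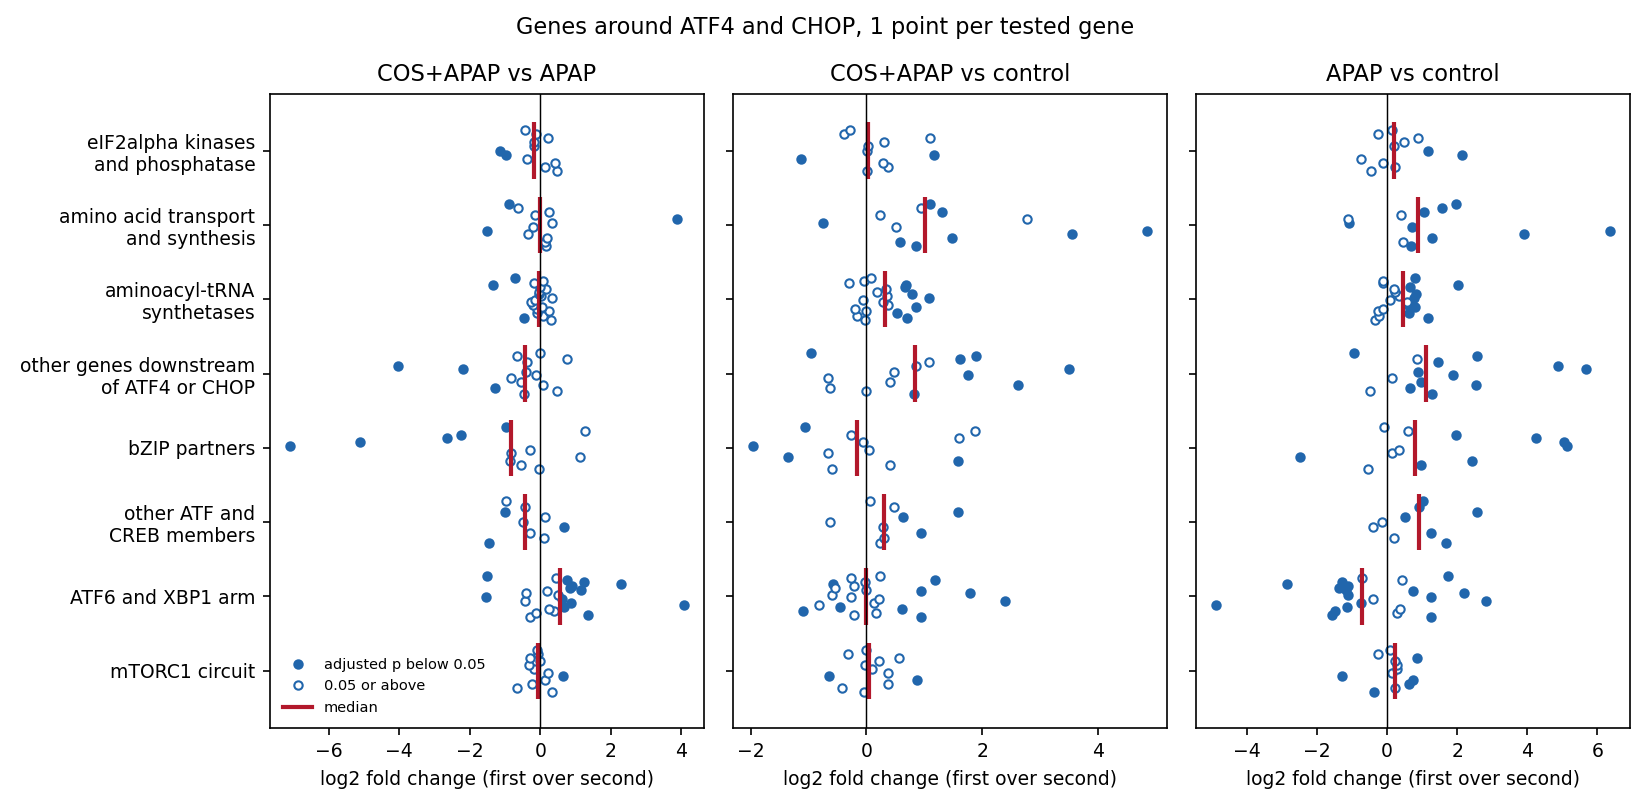
Log2 fold changes of the tested genes of each of the 8 pathway lists in the 3 comparisons, with 1 point per gene, filled at an adjusted p below 0.05, and a bar at the list median. The ATF6 and XBP1 arm has its median at -0.728 in APAP against control and 0.569 in COS+APAP against APAP, while genes downstream of ATF4 or CHOP have theirs at 1.12 and -0.429.

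Markers of other cell types and zones moved with the groups as well. The 6 pericentral markers summed to 3515 and 2878 FPKM in COS+APAP, 961.1 and 1364 FPKM in APAP, and 3606 and 2857 FPKM in control, and all 6 fell in APAP against control and rose in COS+APAP against APAP. The 5 erythroid markers summed to 309.3 and 316.4 FPKM in COS+APAP, 1492 and 1075 FPKM in APAP, and 297.5 and 269.4 FPKM in control. Sums of the 6 neutrophil markers were 3.31 and 2.48 FPKM in COS+APAP, 26.1 and 8.58 FPKM in APAP, and 4.08 and 5.98 FPKM in control, and those of the 5 monocyte markers were 19.23 and 19.12 FPKM in COS+APAP, 49.15 and 37.22 FPKM in APAP, and 24.39 and 25.45 FPKM in control. Among the monocyte markers only *Cd14* was higher in both APAP libraries than in control, at 2.55 and 1.81 FPKM in COS+APAP, 31.76 and 14.51 FPKM in APAP, and 1.21 and 0.85 FPKM in control. *Lyz2*, the other abundant one, was at 16.31 and 16.78 FPKM in COS+APAP, 16.91 and 22.41 FPKM in APAP, and 22.80 and 24.26 FPKM in control. Both APAP libraries lay below control. The 6 sinusoidal endothelial markers (13.7 to 15.92 FPKM in COS+APAP, 31.1 to 33.35 in APAP, 23.31 to 26.35 in control), the 6 stellate markers (13.88 to 18.31 in COS+APAP, 38.36 to 41.57 in APAP, 34.45 to 34.48 in control) and the 5 cholangiocyte markers (20.15 to 21 in COS+APAP, 35.37 to 51.03 in APAP, 28.49 to 34.42 in control) were also highest in APAP as sums. Single genes made up much of these sums, such as *S100a9* among the neutrophil and *Spp1* among the cholangiocyte markers. The stellate marker *Lrat* was at 0.51 and 0.57 FPKM in APAP and 1.66 and 1.85 FPKM in control. Of the endothelial markers 2 rose in APAP against control, *Lyve1* and *Pecam1*, and 4 did not pass, where 23.3% of all tested genes rose. *Lyve1* was at 8.36 and 6.45 FPKM in APAP and 1.13 and 1.00 FPKM in control. Kupffer cell, lymphocyte and periportal marker sums overlapped between COS+APAP and APAP. In whole liver, fewer cells of a type and less RNA per cell cannot be told apart, and the part of these cells in the values of the 10 genes was not tested.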

How the data were processed

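Poly(A) RNA of mouse liver was sequenced paired-end in 6 libraries of 3 groups. The submitters' processing notes name HISAT2 2.0 and StringTie 1.3.0 and, as used here, no genome build. Coordinates are those of the deposited table, and those of all 11 entries of the 10 genes are identical to mouse GENCODE release 21. The authors deposited estimated counts per gene, per the file headers, all whole numbers, which were used in the tests as they are. The authors also deposited FPKM values of the same genes, per the file headers. The table also has 6 columns that belong to no sample given here, which were left unused. Counts of 4 were more frequent than counts of 3, so a fragment may stand for about 4 counts; this number sets the counting precision.

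Genes with a mean of at least 1 FPKM over the 6 libraries, 10051 in all, were tested with the two-sided quasi-likelihood F test of edgeR 4.0.16 in R 4.3.3 with TMM scaling and 1 model of the 3 groups (3 residual degrees of freedom). P-values were adjusted by Benjamini-Hochberg over all tested genes, and genes below 0.05 were called. Each standard error was obtained as the log2 fold change over the square root of its F. For 2 libraries against 2, an exact permutation test of a single gene cannot give a p below 0.33. The test was checked on simulated data. Alternatives were other scalings, DESeq2 1.42.0, limma 3.58.1 on log2(FPKM + 1) and log2(FPKM + 0.1), other filters, counts divided by 4, only the 4 libraries compared, a replicate block and leaving out each library. The filter on low values passes a gene through whichever group is high, which touches *Atf3*, *Chac1* and *Asns*, with a mean below 1 FPKM in control, and lies close for *Trib3* and *Sesn2*. It touches listed genes in the same way, among them *Psat1*, *Mthfd2*, *Slc7a5*, *Slc1a4*, *Fgf21* and *Bcl2l11*. Counts and medians of a list therefore describe its tested genes only.

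All 10 genes are described. Genes named from a list are all of the eIF2alpha list, and otherwise come from the 2 largest and the 2 smallest log2 fold changes in APAP against control. Exceptions are *Crebbp*, *Ern1* and *Xbp1*, and genes named for the filter on low values. The nearest profiles were taken for *Atf4*, *Ddit3* and *Atf3*, 3 genes each. The 10 genes, the lists and the markers were chosen with earlier results of these data known. Promoter sequences are from RefSeq (GRCm38.p6), trimmed of bases that GENCODE annotates as untranslated regions where longer than a site. Other bases inside an annotated gene were not trimmed, and the *Atf3* stretch lies inside its gene.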

Additional observations from a re-analysis of the deposited data

How the results depend on the processing

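The 10 genes kept their direction and side of the threshold in 174 of 179 values under the alternatives in APAP against control, 145 of 169 in COS+APAP against APAP and 149 of 169 in COS+APAP against control. Directions turned for *Chac1* in COS+APAP against APAP (-2.307 to 0.0617 with 1 library left out) and for *Atf4* in COS+APAP against control (-0.10 with library totals alone, -0.0802 with limma at a pseudocount of 1, -0.0815 at 0.1, and -0.0323 to 0.179 with 1 library left out). Among genes not called, *Ppp1r15b* turned in APAP against control to -0.0168 with library totals, -0.00603 with limma at a pseudocount of 1 and -0.00667 at 0.1 (-0.000381 to 0.258 with 1 library left out), and *Slc1a4* ranged over -1.91 to 0.84 with 1 library left out; the cause was not tested. Library totals alone moved the median log2 fold change of all genes to -0.153 in APAP against control and -0.154 in COS+APAP against control.

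Counts of called genes moved as follows; fewer genes were tested with a mean FPKM of at least 5, and the cause of the other shifts was not tested. In APAP against control 2342 genes were higher and 2219 lower, with 1179 and 1122 at a mean FPKM of at least 5. In COS+APAP against APAP 1130 were higher and 1119 lower, with 1746 and 1806 by DESeq2 and 556 and 537 at a mean FPKM of at least 5. DESeq2 put 5 of the 10 genes lower there instead of 3. In COS+APAP against control 1073 were higher and 1036 lower, with 715 and 1636 with library totals alone, 1698 and 1723 by DESeq2, 681 and 1638 by limma at a pseudocount of 1, 685 and 1562 at 0.1, and 675 and 620 at a mean FPKM of at least 5. *Atf5* was called higher there by DESeq2 (adjusted p = 0.00328), with upper quartile scaling (0.0483) and at a mean FPKM of at least 5 (0.0362), *Ddit3* by DESeq2 (0.0231), and *Chac1* was not called by limma at a pseudocount of 1 (0.057). With 1 library left out, 1578 to 2137 genes were higher and 1466 to 1980 lower in APAP against control (8 to 10 of the 10 genes higher, 0 lower), 278 to 949 and 334 to 992 in COS+APAP against APAP (0 to 1 and 0 to 4 of the 10), and 308 to 851 and 282 to 876 in COS+APAP against control (4 to 8 and 0 of the 10).

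Same-numbered libraries of APAP and control share a number in their titles, and their deviations from the group means correlated at r = 0.0217 over 10051 genes. With 2 libraries a group this value rests on a single contrast, so it cannot decide whether these libraries were paired. With the replicate block, 1709 genes were higher and 1478 lower, 3079 of these also called without it, and 9 of the 10 genes were higher, *Atf4* being lost (0.96, adjusted p = 0.0639). COS+APAP shares only the number 3 with the other groups, so no paired analysis was possible for it. *Asns* has no value at a mean FPKM of at least 5. Counts over the lists, which held 9 to 22 tested genes, shifted by at most 8 genes. Under the alternatives 176 of 832 such counts moved by more than a fixed factor and 656 did not. With 2 libraries a group, a difference that misses the threshold is not shown to be absent.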
